A study of Saccharomyces cerevisiae with 15 samples.

Results

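The genes of 10 stress-responsive regulators of budding yeast were followed through exposure to the rare earth metals lanthanum and ytterbium: the transcription factor genes MSN2, MSN4, GIS1, XBP1, USV1, HSF1, SKN7, YAP1 and CIN5, and the protein kinase gene RIM15. They were chosen by name, as 10 of the 6600 gene identifiers in the expression matrix, and all 10 passed the filter on low values. Every library came from strain BY4741, called wild type by the submitters, which in this background is a haploid of mating type a that carries deletions in HIS3, LEU2, MET17 and URA3. Cultures grew in liquid YNB-β-glycerophosphate medium, and the 5 groups of 3 libraries were a non-treated control, lanthanum at 50 µM (La EC10) or 160 µM (La EC50), and ytterbium at 6 µM (Yb EC10) or 8 µM (Yb EC50), each for 1 h. EC10 and EC50 are the submitters' names for the concentrations with those effect levels, so the metals were compared at matched effect level and never at matched concentration. The sources used here do not state whether replicate libraries were grown as separate cultures; p-values therefore measure the spread between libraries, which may be technical.

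Msn2 and Msn4 are related zinc finger activators that protein kinase A keeps out of the nucleus; when the kinase is less active or the cell is stressed they enter the nucleus and bind the stress response element, AGGGG, upstream of many protective genes. Rim15 is a kinase held back by protein kinase A and TOR signalling that acts ahead of Gis1 and of entry into quiescence. Hsf1 drives chaperone genes, Yap1 drives antioxidant and detoxification genes after its cysteines are oxidised, and Skn7 works beside both. The activity of Msn2, Msn4, Hsf1, Yap1, Skn7 and Rim15 is set largely on the protein, by location, phosphorylation, oxidation or binding partners, which an RNA measurement does not see.

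The libraries held 5629666 to 7183175 reads assigned to genes, and 1 read was worth 0.901 to 1.22 normalized counts, the scale of every level below. A count of 0 reads would allow a level of up to 2.70 to 3.67 normalized counts (3 reads). Among the members XBP1 had the fewest reads, 10 in its lowest library. URA3 and MET17 had no read in any library and LEU2 at most 0.953 normalized counts, while HIS3, which is deleted only in part, had 349.9 to 507. The a-specific genes MFA2 and STE2 had at least 2718 and 3239 normalized counts in each library. Of the alpha-specific genes, MF(ALPHA)1 had at most 11.7 and MF(ALPHA)2 at most 5.32, while STE3 had 47.4 to 79.6 and SAG1 212 to 313. Of the 13 markers 8 were tested. At La EC10 6 were called lower, where 20.3% of all genes were called in either direction. At La EC50 5 were called lower and 1 higher, against 25.6% of all genes. Each ytterbium group had 6 lower and 1 higher, against 29.3% for the EC10 group and 40.8% for the EC50 group. Genes of the a-specific kind were among those called lower. MFA1 had a mean of 1568 normalized counts in control and 563 to 947 over the exposed groups. BAR1 had 2730 in control and 1151 to 2141 when exposed. The part of the markers in the results was not tested. Along the first principal component, with 46.0% of the variance, the control libraries lay at one end (-18.1 to -14.1), lanthanum libraries next (-9.28 to -3.73) and ytterbium libraries beyond them (2.09 to 24.7). In whole cultures, more RNA of a gene per cell and more cells that make it cannot be told apart.

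The promoters shown are those of XBP1, USV1 and GIS1, the members with a stress response element within the 300 bases that end 101 bases before the coding start, and, as a contrast, that of MSN4, a member that rose under lanthanum and has none there. They are reference sequence of build R64 from RefSeq, 5′ to 3′ on the strand of the gene, with each AGGGG or its reverse complement in capitals. The XBP1 window is chrIX:177351-177650 on the minus strand, the USV1 window chrXVI:114912-115211 on the plus strand, the GIS1 window chrIV:636739-637038 on the plus strand and the MSN4 window chrXI:322828-323127 on the plus strand. None of the 4 windows overlaps an annotated gene.
XBP1: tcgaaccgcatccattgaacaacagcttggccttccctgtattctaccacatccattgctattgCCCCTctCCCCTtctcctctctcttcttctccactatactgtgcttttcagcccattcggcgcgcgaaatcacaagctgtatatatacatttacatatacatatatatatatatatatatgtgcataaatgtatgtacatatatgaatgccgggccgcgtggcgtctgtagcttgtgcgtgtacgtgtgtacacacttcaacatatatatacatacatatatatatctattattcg
USV1: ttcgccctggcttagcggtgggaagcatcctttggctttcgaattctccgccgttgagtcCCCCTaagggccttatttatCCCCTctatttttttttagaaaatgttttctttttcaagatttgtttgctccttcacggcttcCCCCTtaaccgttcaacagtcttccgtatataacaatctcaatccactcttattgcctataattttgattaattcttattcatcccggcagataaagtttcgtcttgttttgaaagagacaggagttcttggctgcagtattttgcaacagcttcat
GIS1: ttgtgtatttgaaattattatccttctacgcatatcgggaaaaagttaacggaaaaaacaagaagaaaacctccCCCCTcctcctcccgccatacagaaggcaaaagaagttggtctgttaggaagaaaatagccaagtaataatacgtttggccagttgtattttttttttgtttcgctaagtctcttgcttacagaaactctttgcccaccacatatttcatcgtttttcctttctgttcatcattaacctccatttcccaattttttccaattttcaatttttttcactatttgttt
MSN4: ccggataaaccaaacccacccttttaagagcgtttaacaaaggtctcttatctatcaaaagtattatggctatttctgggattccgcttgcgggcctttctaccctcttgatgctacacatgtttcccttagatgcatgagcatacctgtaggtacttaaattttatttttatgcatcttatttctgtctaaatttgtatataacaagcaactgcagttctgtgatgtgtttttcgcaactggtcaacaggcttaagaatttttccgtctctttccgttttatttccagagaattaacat

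XBP1 held 2 matches, USV1 3 and GIS1 1, and the other 7 members had no match in this window. Among 6020 promoters of the same length 23.5% had at least 1 AGGGG on either strand and 4.10% had at least 2. Extending the window to 600 bases, from 700 to 101 bases before the coding start, gave 6 matches for USV1 and 5 for XBP1, 1 each for GIS1, MSN2, SKN7 and CIN5, and no match for MSN4, RIM15, HSF1 and YAP1. Of 6018 promoters of that length 40.3% had at least 1 match, 0.366% had at least 5 and 0.0997% at least 6. A match is a run of letters, and no binding was measured.

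Other motifs were rarer among the members. The heat shock element was searched as its consensus of inverted GAA units (1.10% of promoters on either strand) and the post-diauxic element of Gis1 as TTAGGGAT or TAAGGGAT (1.56%); no member window of 300 bases had either run. RIM15 and SKN7 had 1 match each to the Yap element, TTACTAA or TTAGTAA, against 6.79% of promoters. The core CTCGA of the Xbp1 site was in 25.1% of promoters. CIN5 had it on both strands as overlapping matches, 207 to 202 bases before its coding start, in the stretch chrXV:384605-384644 of the minus strand, where the capitals mark the site. The 300-base CIN5 window, which contains this stretch, overlaps the annotated YOR029W.
CIN5: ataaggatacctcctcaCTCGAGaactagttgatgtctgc

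In build R64 MSN2 (YMR037C) lies at chrXIII:344403-346517, MSN4 (YKL062W) at chrXI:323228-325120, GIS1 (YDR096W) at chrIV:637139-639823 and RIM15 (YFL033C) at chrVI:69115-74427. XBP1 (YIL101C) lies at chrIX:175307-177250, USV1 (YPL230W) at chrXVI:115312-116487 and HSF1 (YGL073W) at chrVII:368753-371254. YAP1 (YML007W) lies at chrXIII:253848-255800, SKN7 (YHR206W) at chrVIII:512732-514600 and CIN5 (YOR028C) at chrXV:383533-384420. All 10 members are annotated with 1 exon and none overlaps another annotated gene. In unexposed cells, levels per kilobase of coding length ran from YAP1, at 648 ± 41.3 normalized counts per kilobase (SD, n = 3), to XBP1, at 7.68. Between them came SKN7 with 390.2, MSN2 with 318, HSF1 with 183, MSN4 with 161, CIN5 with 145, GIS1 with 108, RIM15 with 63.7 and USV1 with 42.1 normalized counts per kilobase. Of the neighbours in this order, only HSF1 and MSN4, and MSN4 and CIN5, had overlapping ranges over the control libraries. On this scale XBP1 exceeded 0.656% and YAP1 70.7% of the 5487 genes that passed the filter on low values and had a coding length. Genes under the filter were not ranked. The members that later changed most, XBP1 and USV1, were thus the lowest of the 10 in control.

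**Figure D1:**
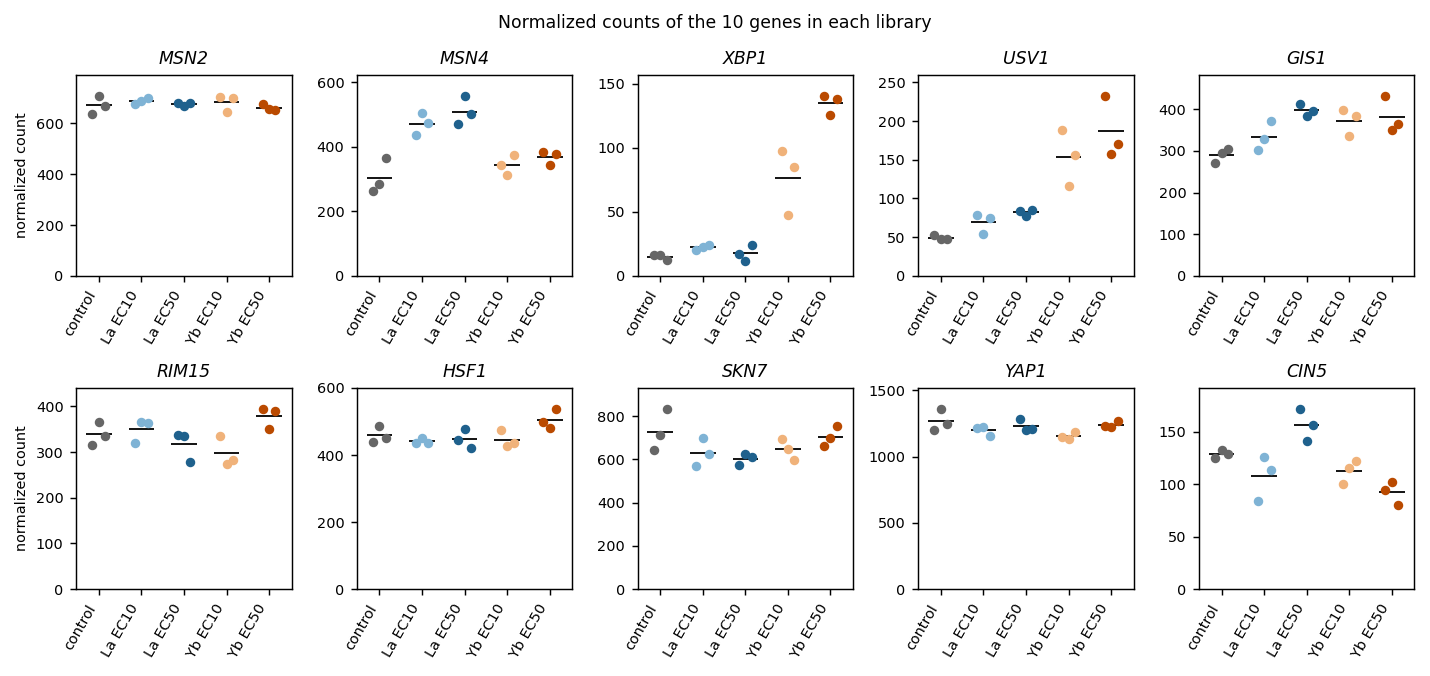
Normalized count (y axis, from 0, 1 scale per gene) of each of the 10 genes in each library (points) and the group mean (bar) for control, La EC10, La EC50, Yb EC10 and Yb EC50. XBP1 and USV1 lie highest in the ytterbium libraries, MSN4 in the lanthanum libraries, and CIN5 in La EC50, while MSN2 lies between 637 and 708 in all 15.

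Against control, 1 of the 10 members was called at La EC10, where 20.3% of the 5567 genes tested were called (limma on log2(normalized count + 1), Benjamini-Hochberg adjusted p under 0.05). At La EC50 3 members were called against 25.6% of all genes, at Yb EC10 3 against 29.3%, and at Yb EC50 5 against 40.8%. These shares are near the background, so the number of calls is not a result about the members; which genes moved, and how far, is described gene by gene. Calls with at least a 2-fold change covered XBP1 and USV1 at both ytterbium concentrations, among 2.69% of all genes at Yb EC10 and 4.83% at Yb EC50, and no member under lanthanum (1.29% and 1.83%). The 4 comparisons share the control libraries and are not independent.

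MSN2 and MSN4, which encode the paired activators of the general stress response, behaved differently at the RNA level. MSN2 had 637, 708 and 670.0 normalized counts in control libraries 1 to 3, 675, 689.9 and 699.8 in La EC10 libraries 13 to 15, and 682, 668 and 681 in La EC50 libraries 10 to 12. It had 705, 646 and 699 in Yb EC10 libraries 7 to 9 and 676, 656 and 654 in Yb EC50 libraries 4 to 6. All groups overlapped, and the 95% intervals of its log2 change from control lay between -0.14 and 0.16 over the 4 exposures, so changes beyond about that size were outside the intervals. Its group means spanned 0.06 on the log2 scale, the narrowest span of the 10 members.

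MSN4 was higher under lanthanum. Control libraries had 263, 284 and 365 normalized counts, La EC10 libraries 437, 504 and 474, and La EC50 libraries 469.7, 557 and 501. Yb EC10 libraries had 345, 311 and 375 and Yb EC50 libraries 384, 344 and 377. Every lanthanum library exceeded every control and ytterbium library, while the ytterbium libraries overlapped the controls through control library 3 alone.

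MSN4 rose by 0.64 ± 0.11 on the log2 scale at La EC10 (SE; limma adjusted p = 0.000784) and by 0.75 ± 0.11 at La EC50 (adjusted p = 0.000131), a ratio of means of 1.67. At Yb EC10 the change was 0.19 ± 0.11 (adjusted p = 0.216); without control library 3, the highest control, it was 0.32 and called (adjusted p = 0.0308). At Yb EC50 it was 0.29 ± 0.11, called by a small margin (adjusted p = 0.0472) and kept in 11 of 24 alternative analyses, with adjusted p between 0.0044 and 0.198; without control library 1 the change was 0.19 (adjusted p = 0.198). Compared directly, MSN4 was lower in ytterbium than in lanthanum by the same amount at both effect levels, -0.46 at EC10 (adjusted p = 0.0199) and -0.46 ± 0.11 at EC50 (adjusted p = 0.00687). The EC10 difference lost its call without La EC10 library 14, La EC10 library 15 or Yb EC10 library 8 (adjusted p = 0.0759, 0.0602 and 0.0717).

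The genes of a repressor and a zinc finger factor moved most under ytterbium. XBP1 encodes a transcriptional repressor made under stress and starvation, with a DNA-binding domain related to those of the cell cycle factors Swi4 and Mbp1. Its control libraries had 16.6, 16.0 and 12.2 normalized counts, La EC10 libraries 20.1, 22.2 and 24.4, and La EC50 libraries 17.0, 11.9 and 24.3. Yb EC10 libraries had 97.2, 47.2 and 84.6, and Yb EC50 libraries 140.3, 126 and 138. All ytterbium libraries were above all others and all Yb EC50 libraries above all Yb EC10 libraries, while La EC50 overlapped control; each La EC10 library was above each control library.

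XBP1 rose by 2.23 ± 0.26 on the log2 scale at Yb EC10 (limma adjusted p = 2.09e-05), and at Yb EC50 the ratio of means was 9.02, with an adjusted p of 2.47e-07. Its change ranked 13th in absolute size among the genes tested at Yb EC50 and 15th at Yb EC10. Under lanthanum the changes were 0.55 ± 0.26 at EC10 (adjusted p = 0.148) and 0.19 ± 0.26 at EC50 (adjusted p = 0.629), with an upper 95% bound of 1.11 and 0.74. The log2 difference between the metals was 1.68 at EC10 (adjusted p = 0.000803) and 2.91 ± 0.26 at EC50 (adjusted p = 1.33e-06), higher with ytterbium.

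USV1 encodes a C2H2 zinc finger factor that acts on genes for respiratory carbon sources and salt stress. Control libraries had 52.9, 47.9 and 47.8 normalized counts, La EC10 libraries 79.3, 53.6 and 74.3, and La EC50 libraries 83.8, 77.5 and 84.7. Yb EC10 libraries had 189, 116 and 156 and Yb EC50 libraries 232, 157 and 170.1. The order was control, then lanthanum, then ytterbium without overlap, while the 2 concentrations of a metal overlapped each other.

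USV1 rose by 1.59 ± 0.18 on the log2 scale at Yb EC10 (limma adjusted p = 1.6e-05), by 1.87 ± 0.18 at Yb EC50 (adjusted p = 1.14e-06) and by 0.72 ± 0.18 at La EC50 (adjusted p = 0.0091). At La EC10 the change was 0.45 ± 0.18 (adjusted p = 0.0877), and it was called without La EC10 library 14, the lowest of its group (adjusted p = 0.0222). Ytterbium exceeded lanthanum by 1.13 at EC10 (adjusted p = 0.000985) and by 1.16 ± 0.18 at EC50 (adjusted p = 0.000304). USV1 was therefore the member called at both Yb concentrations and at La EC50 that also differed between the metals at both effect levels.

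GIS1 encodes a JmjC-domain zinc finger factor of the post-diauxic shift, and RIM15 the kinase ahead of it. GIS1 had 271, 294 and 305 normalized counts in control, 302, 327 and 371 at La EC10 and 413, 384 and 396 at La EC50. It had 399, 336 and 384 at Yb EC10 and 431, 349 and 365 at Yb EC50. Every La EC50, Yb EC10 and Yb EC50 library lay above the control range, and La EC10 overlapped it. The log2 increase was 0.46 ± 0.10 at La EC50 (limma adjusted p = 0.00263), 0.36 ± 0.10 at Yb EC10 (adjusted p = 0.0108) and 0.39 ± 0.10 at Yb EC50 (adjusted p = 0.00459), all under a 2-fold change. At EC50 the metals differed by -0.06, with a 95% interval of -0.27 to 0.14 for ytterbium minus lanthanum (adjusted p = 0.679).

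RIM15 had 315, 365 and 336 normalized counts in control, 319, 366 and 364 at La EC10 and 338, 335 and 279 at La EC50. It had 335, 274 and 283 at Yb EC10 and 393, 350.2 and 390.3 at Yb EC50. Each exposed group overlapped control, and no contrast with control was called; the log2 changes lay between -0.19 at Yb EC10 (adjusted p = 0.153) and 0.16 at Yb EC50 (adjusted p = 0.211). The 3 Yb EC50 libraries were above the 3 Yb EC10 libraries, a log2 step of 0.35 that missed the threshold (adjusted p = 0.0634).

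HSF1, YAP1 and SKN7, the genes of the chaperone, oxidative stress and response regulator factors, were called in no exposure by limma with all libraries on the deposited scale. HSF1, the essential heat shock factor gene, ran from 422 to 485 normalized counts over the control, lanthanum and Yb EC10 libraries and had 498, 481 and 536 at Yb EC50, where its log2 change was 0.14 ± 0.07 (limma adjusted p = 0.126). YAP1, which encodes a bZIP factor, had 1199, 1355 and 1242 normalized counts in control and 1135 to 1279 over all exposed libraries, with log2 changes between -0.13 and -0.03. Its Yb EC10 libraries (1148, 1135 and 1183) lay under the control range, a log2 change of -0.13 that was not called (adjusted p = 0.101). SKN7, whose product has a DNA-binding domain like that of Hsf1, had 642, 714 and 832 normalized counts in control and 575, 625 and 612 at La EC50. All 3 La EC50 libraries lay under the SKN7 control range, a log2 change of -0.26 ± 0.10 that missed the threshold (adjusted p = 0.0542) and passed it with edgeR on the recovered reads (adjusted p = 0.0394). By limma it also passed without control library 1, La EC10 library 13 or La EC10 library 14 (adjusted p = 0.0178, 0.0496 and 0.0387). At La EC10 the SKN7 change was -0.20 (limma adjusted p = 0.143), called without control library 1 or La EC10 library 14 (adjusted p = 0.0487 and 0.0489).

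CIN5, also called YAP4, encodes a bZIP factor of salt tolerance. It had 125, 133 and 129 normalized counts in control, 84.3, 126 and 114 at La EC10 and 172, 141 and 157 at La EC50. It had 100.1, 116 and 122 at Yb EC10 and 94.8, 103 and 80.1 at Yb EC50. La EC50 was above every other group without overlap, and both ytterbium groups lay under the control range.

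CIN5 fell by 0.48 ± 0.14 on the log2 scale at Yb EC50 (SE; limma adjusted p = 0.0121), and its change at La EC50 was 0.27 ± 0.14 (adjusted p = 0.162). The fall was no longer called with libraries scaled to equal totals (-0.35, adjusted p = 0.0538) or without Yb EC50 library 6 (-0.38, adjusted p = 0.0581). Ytterbium was under lanthanum at EC50 by -0.76 ± 0.14 (adjusted p = 0.00114), and this difference was called in every alternative run.

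**Figure D2:**
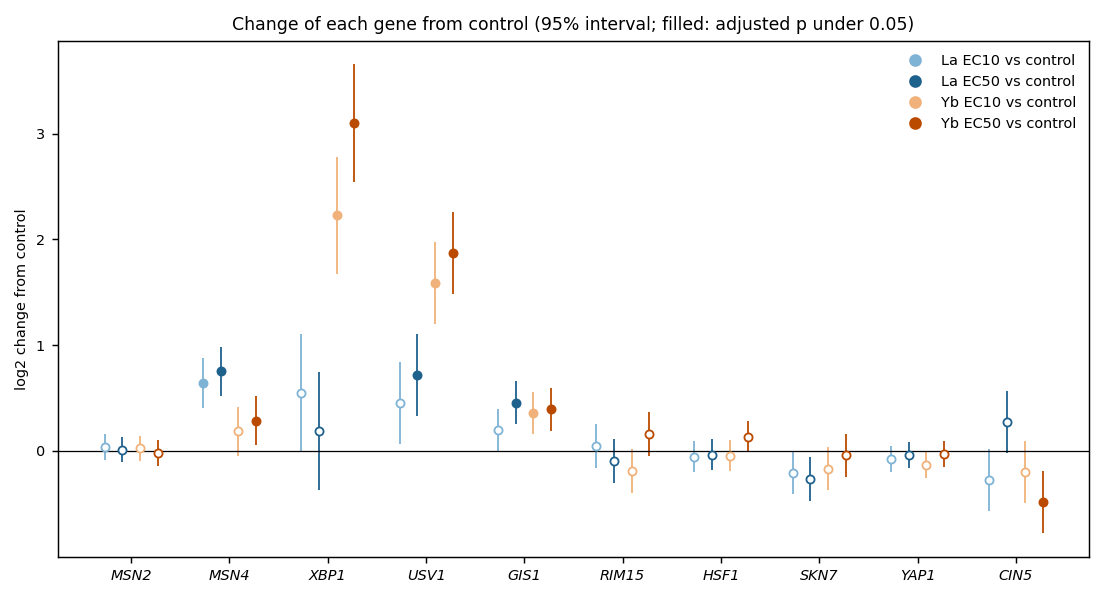
Log2 change from control (y axis) of each of the 10 genes for the 4 exposures; points are limma estimates, bars 95% intervals, and filled points have an adjusted p under 0.05. XBP1 reaches 3.10 at Yb EC50 and USV1 1.87, MSN4 is highest at La EC50 (0.75), and the intervals of MSN2 and YAP1 stay close to 0.

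Without regard to the test, the ranges of exposed and control libraries did not overlap for 3 members at La EC10 (34.5% of all genes), 5 at La EC50 (42.7%), 5 at Yb EC10 (40.9%) and 4 at Yb EC50 (52.1%). Between the metals, 3 members were called at EC10 (XBP1, USV1 and MSN4), where 5.89% of all genes were called, and 4 at EC50 (the same 3 and CIN5), where 22.0% were. In a test of any difference among the 5 groups MSN4, XBP1, GIS1, USV1 and CIN5 were called, 5 of 10 against 43.1% of all genes.

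From EC10 to EC50 no member was called in either metal by limma, where 1.78% of all genes were called for lanthanum and 1.10% for ytterbium. At an unadjusted p under 0.05 there were 2 members for lanthanum and 3 for ytterbium, a threshold at which the share of all genes was not counted. For the lanthanum and ytterbium steps edgeR called 0 and 1 members, against 102 and 176 of the 5567 genes tested. DESeq2 called 1 and 2 members, against 169 and 308 of these genes. The largest lanthanum step was that of CIN5, 0.55 ± 0.14 on the log2 scale (limma adjusted p = 0.0599), with all La EC50 libraries above all La EC10 libraries; it was called with DESeq2 (adjusted p = 0.0263), with equal totals (adjusted p = 0.0494) and without La EC10 library 14 (adjusted p = 0.0283). The largest ytterbium step was that of XBP1, 0.87 ± 0.26 (adjusted p = 0.0829), called with edgeR (adjusted p = 0.0404), with DESeq2 (adjusted p = 0.016) and without Yb EC10 library 7 (adjusted p = 0.0233). The ytterbium step of RIM15 was called with DESeq2 (adjusted p = 0.0477) and without Yb EC10 library 7 (adjusted p = 0.0117). The ytterbium concentrations lie close together, 6 and 8 µM, and the lanthanum ones far apart, 50 and 160 µM.

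The difference between the steps of the metals was called for CIN5, as 1 of 10 members against 3.25% of all genes. CIN5 stepped up with lanthanum and by -0.29 with ytterbium, a difference of -0.83 ± 0.20 (limma adjusted p = 0.0433), kept in 12 of 24 alternatives with adjusted p between 0.0099 and 0.112. RIM15 (0.49 ± 0.14, adjusted p = 0.0592) and XBP1 (1.24 ± 0.37, adjusted p = 0.071) missed the threshold, and both passed it without Yb EC10 library 7 (adjusted p = 0.0127 and 0.0245).

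**Figure D3:**
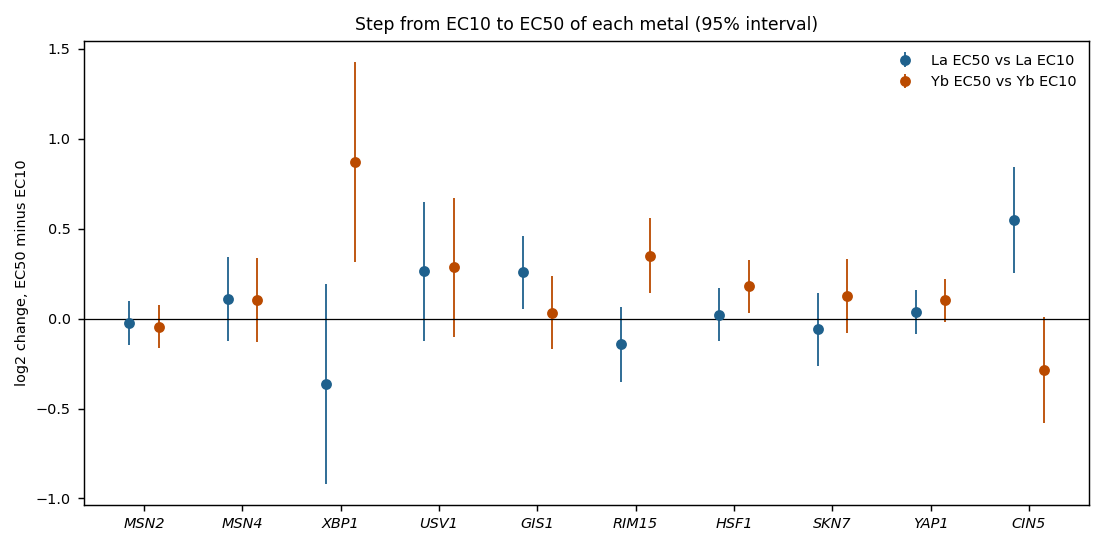
Log2 change from EC10 to EC50 (y axis) of each of the 10 genes within lanthanum and within ytterbium, with 95% intervals. CIN5 steps up in lanthanum (0.55) and down in ytterbium (-0.29), and XBP1 has the largest step in ytterbium (0.87).

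The genes these factors are known to act on were described from lists chosen with earlier results of these data known, so the lists are no independent evidence of a direction. Of 28 genes of the Msn2/Msn4 type, 9 rose at La EC10, 5 rose and 2 fell at La EC50, 27 rose at Yb EC10 and 28 rose at Yb EC50. Their median log2 changes were 0.40, 0.21, 1.35 and 1.83, where the medians of all genes tested lay between -0.02 and 0.01. The shares of all genes called, in either direction, were 20.3% at La EC10, 25.6% at La EC50, 29.3% at Yb EC10 and 40.8% at Yb EC50. The calls of the list at La EC50 are near that share. The falls at La EC50, of SOD2 and HSP104, were not called with equal totals (adjusted p = 0.245 and 0.084). HSP12, which encodes a membrane-stabilising small protein, rose by 3.79 ± 0.35 at Yb EC50 (limma adjusted p = 7.8e-07). HXK1, a hexokinase gene, rose by 2.94 ± 0.22, GPH1, the glycogen phosphorylase gene, by 2.88 ± 0.26, and DDR2, a multistress gene of unknown molecular role, by 2.66 ± 0.32 on the log2 scale. At La EC50 the glycogen synthase gene GSY1 rose by 0.93 ± 0.23 and HXK1 by 0.84 ± 0.22. All 28 were called higher at Yb EC50 than at La EC50 (median log2 difference 1.52), where 22.0% of all genes were called.

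These targets and the genes of their factors did not follow the same order of exposures. MSN4 RNA was highest under lanthanum and MSN2 RNA was level, while the 28 targets were highest under ytterbium, as were XBP1 and USV1. The mean log2 level of the 28 targets, relative to control, was 0.49, 0.18 and 0.57 in La EC10 libraries 13 to 15 and 0.24, 0.16 and 0.21 in La EC50 libraries 10 to 12. It was 1.65, 0.80 and 1.46 in Yb EC10 libraries 7 to 9 and 2.11, 1.65 and 1.73 in Yb EC50 libraries 4 to 6. For the targets, XBP1 and USV1 alike, library 8 was the lowest of the Yb EC10 group and library 4 the highest of the Yb EC50 group. MSN4, MSN2 and GIS1 had the same lowest and highest library in these groups. So did the first principal component over all genes tested (library 8 at 2.09, library 4 at 24.7), so this order was not particular to the targets, XBP1 and USV1.

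**Figure D4:**
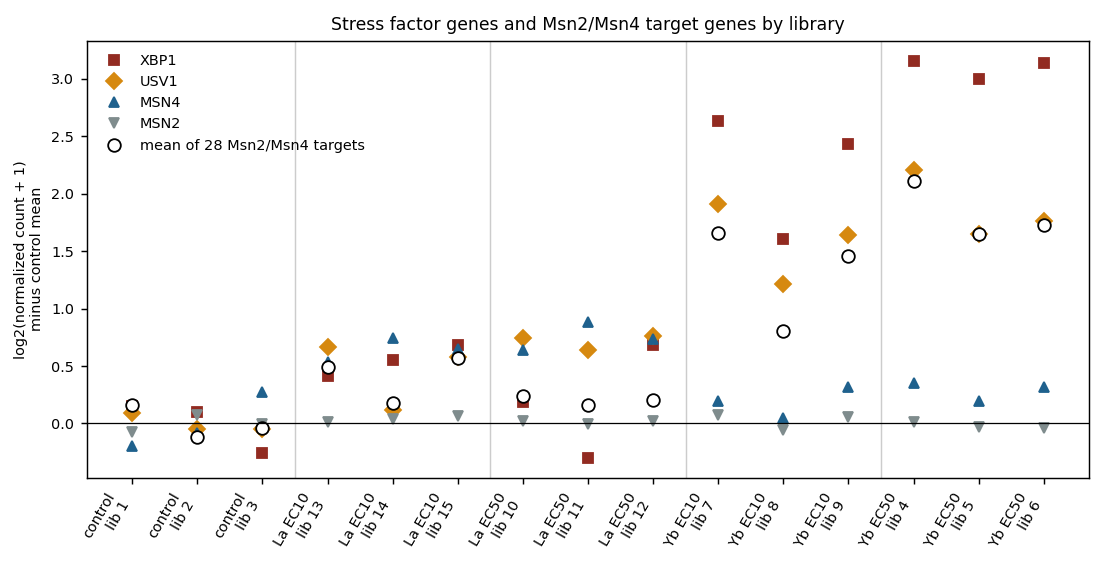
Log2(normalized count + 1) minus the control mean (y axis) in each of the 15 libraries for XBP1, USV1, MSN4, MSN2 and the mean of 28 Msn2/Msn4 target genes. The target mean, XBP1 and USV1 are highest in the ytterbium libraries, while MSN4 is highest in lanthanum libraries and MSN2 stays near 0. Within the Yb EC10 group library 8 is the lowest for each of them, MSN4 and MSN2 included.

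Of 6 post-diauxic genes ascribed to Gis1, 3 rose at Yb EC10, where 29.3% of all genes were called. At La EC50 2 fell, against 25.6% of all genes called, and at Yb EC50 4 rose, against 40.8%. The medians at Yb EC10 and Yb EC50 were 0.56 and 0.95 log2. Those that rose at Yb EC50 were HSP12, the catalase gene CTT1 (1.59 ± 0.20), the hydrophilin gene GRE1 (1.06 ± 0.27) and the mitochondrial superoxide dismutase gene SOD2 (0.35 ± 0.07); HSP12, CTT1 and SOD2 are also in the Msn2/Msn4 list. At La EC50 the small heat shock gene HSP26 fell by 1.29 ± 0.35 on the log2 scale (limma adjusted p = 0.0133) and SOD2 by 0.23 ± 0.07. SSA3, an Hsp70 gene, had log2 changes between -0.07 and 0.03. With equal totals the SOD2 fall was not called (limma adjusted p = 0.245), and HSP26 was called higher at Yb EC50 (adjusted p = 0.0432). Under quantile normalization GRE1 was not called at Yb EC10 (adjusted p = 0.16).

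Of 21 core Hsf1 target genes, 14 fell and 1 rose at La EC50, with a median of -0.24 log2. The scaling moved this count: 6 fell and 1 rose with libraries scaled to equal totals, and 9 fell and 1 rose under quantile normalization. At La EC10 4 rose and 2 fell, at Yb EC10 3 rose and 1 fell, and at Yb EC50 4 rose (median 0.03). Of all genes tested 20.3% were called at La EC10, 25.6% at La EC50, 29.3% at Yb EC10 and 40.8% at Yb EC50. On the deposited scale the counts in both ytterbium groups are under these shares. With equal totals 5 rose at La EC10, 6 at Yb EC10 and 9 at Yb EC50 (median 0.16), and the falls at these groups were not called; quantile normalization had 6 higher at Yb EC50. The Hsp70 genes SSA4 and SSA1 fell at La EC50 by 0.50 ± 0.13 and 0.48 ± 0.09. Those that rose at Yb EC50 were the small heat shock gene HSP42 (1.54 ± 0.16), the mitochondrial disaggregase gene HSP78 (0.57 ± 0.11), the disaggregase gene HSP104 (0.54 ± 0.10), which is also in the Msn2/Msn4 list, and the Hsp90 gene HSP82 (0.21 ± 0.08). Of the 21, 13 were called higher and 1 lower at Yb EC50 than at La EC50, where 22.0% of all genes were called. HSF1 itself was called in neither group.

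Of 17 Yap1 target genes, 2 rose and 2 fell at La EC10, 2 rose and 3 fell at La EC50, 2 rose and 1 fell at Yb EC10, and 3 rose and 1 fell at Yb EC50 (median 0.03 log2). The 4 calls at La EC10 and 5 at La EC50 are near the shares of all genes called there, 20.3% and 25.6%, and the 4 at Yb EC50 are under 40.8%. With equal totals 3 rose and 1 fell at La EC10 and 4 rose and 1 fell at La EC50, so the balance of calls depends on the scaling. PRX1, the mitochondrial peroxiredoxin gene, rose by 1.15 ± 0.11 at Yb EC50 (limma adjusted p = 7.09e-07) and by 0.47 ± 0.11 at La EC50. At Yb EC50 the glutathione peroxidase gene GPX2 fell by 0.66 ± 0.17, the peroxisomal catalase gene CTA1 rose by 0.63 ± 0.16 and the glutaredoxin gene GRX2 by 0.33 ± 0.07. OYE3, an NADPH dehydrogenase gene, rose by 0.82 ± 0.24 at La EC50. The CTA1 and OYE3 calls were lost under quantile normalization (adjusted p = 0.23 and 0.0813).

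**Figure D5:**
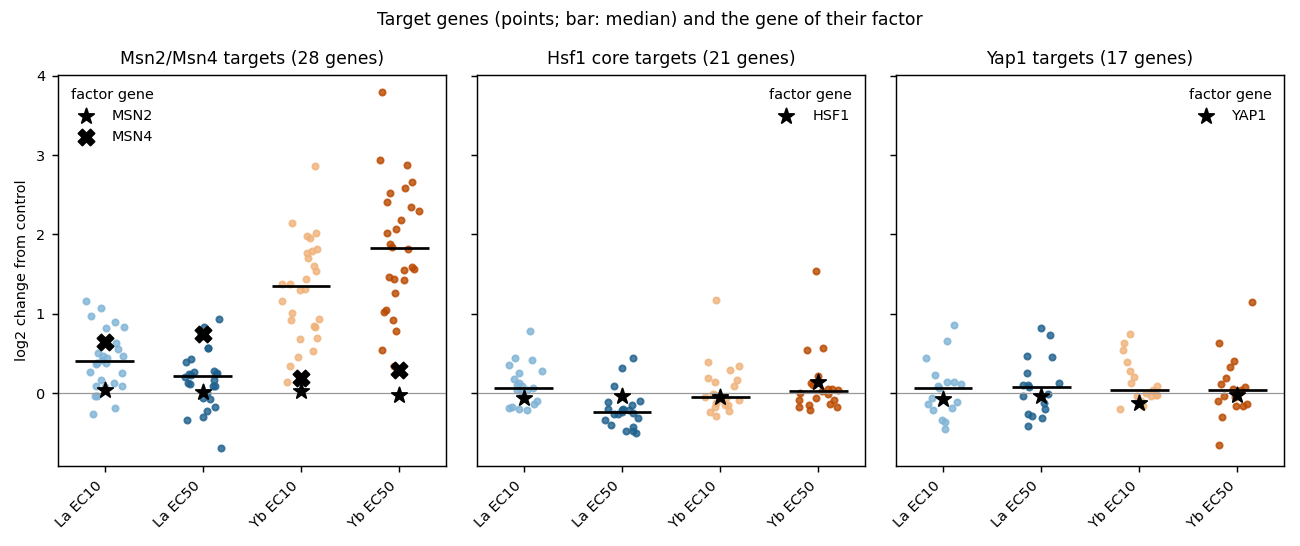
Log2 change from control (y axis) of the target genes of Msn2/Msn4 (28), Hsf1 (21) and Yap1 (17) under the 4 exposures. Points in the colour of their exposure are target genes, bars their medians, and black markers the genes of the factors. The Msn2/Msn4 targets shift upward at both ytterbium concentrations (medians 1.35 and 1.83), while the medians of the Hsf1 and Yap1 targets lie between -0.24 and 0.08.

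Of 23 genes of the Rim15, protein kinase A and TOR network, 11 rose and 3 fell at Yb EC50, with a median of 0.16 log2, and 3 rose and 2 fell at each lanthanum concentration. At Yb EC10 6 rose and 2 fell. Of all genes tested 20.3% were called at La EC10, 25.6% at La EC50, 29.3% at Yb EC10 and 40.8% at Yb EC50. The network counts under lanthanum and at Yb EC10 are near these shares. TPK2, the gene of a catalytic subunit of protein kinase A, rose at Yb EC50 by 0.63 ± 0.08, the cyclic AMP phosphodiesterase gene PDE1 by 0.68 ± 0.10, and BCY1, the gene of the regulatory subunit that inhibits the kinase, by 0.54 ± 0.07 (limma adjusted p at most 6.73e-05). At La EC50 PDE1 rose by 0.47 ± 0.10. With libraries scaled to equal totals the falls at La EC10 were not called, 14 rose at Yb EC50, and the 3 falls, among them TPK3 (main change -0.31), were no longer called. RIM15 was called there only under that scaling (0.29, adjusted p = 0.0471), as was HSF1 (0.27, adjusted p = 0.0135); it moved the median of all genes to 0.11.

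Genes of related factors were also measured. Of the 8 Yap family genes, CIN5 and YAP7 (-0.29 ± 0.09) fell at Yb EC50, where 40.8% of all genes were called. With equal totals neither fall was called (CIN5 -0.35, YAP7 -0.16), and 3 other members, CAD1, YAP3 and ARR1, were called higher there. At La EC50 YAP7 also fell (-0.36, limma adjusted p = 0.0112) and ARR1 rose (0.25, adjusted p = 0.0474). The YAP7 fall at La EC50 was lost with equal totals (adjusted p = 0.0738), and the ARR1 rise under quantile normalization (adjusted p = 0.137). CAD1 and YAP6, the paralogs of YAP1 and CIN5, and RPH1, the paralog of GIS1, were called in no exposure on the deposited scale. Equal totals called CAD1 and RPH1 higher at Yb EC50 (adjusted p = 0.0434 and 0.0168), and quantile normalization called YAP6 lower at Yb EC10 and Yb EC50 (adjusted p = 0.0313 and 0.0125). RGM1, the paralog of USV1, rose by 0.76 ± 0.18 at La EC50 (limma adjusted p = 0.00547) and by 0.51 ± 0.18 at Yb EC50 (adjusted p = 0.033); the latter was lost under quantile normalization (adjusted p = 0.528). Among the 5 genes of the heat shock factor-like family, HMS2 fell in all 4 exposures, by 0.45 to 0.75 on the log2 scale, and MGA1 rose at Yb EC50 (1.03 ± 0.25, adjusted p = 0.00481). SFL1 fell at La EC50 (-0.33, limma adjusted p = 0.016), where 25.6% of all genes were called. That fall was lost with equal totals (adjusted p = 0.0623).

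The genes whose profiles were most like those of the 3 members with the widest range were ranked by Pearson's r over the 15 libraries, as a description; the libraries share their groups, so any gene that follows the groups scores high. For XBP1 they were TPS1 and RTC3 (r = 0.977 each), PAI3 (0.974), TSL1 and DCS2 (0.972 each). TPS1 and TSL1 encode subunits of the trehalose synthase complex, and TPS1, TSL1 and DCS2 are in the Msn2/Msn4 list. For USV1 they were SAF1 (r = 0.977), GLC3, the glycogen branching enzyme gene, GYP7 and GID11 (0.975 each), and RGI1 (0.973). For CIN5 the highest r values were lower, at 0.855 for YLR108C, 0.841 for ELP6 and KAP122, 0.823 for YNL108C and 0.816 for INA1.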

How the data were processed

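The authors deposited 1 matrix of normalized counts for 15 RNA libraries, in which each gene count was divided by a size factor of its library (a signal scale, read from the values). The submitters' processing notes name build R64, TopHat2 2.1.1, HTSeq 0.6.1p1, FastQC 0.67 and DESeq2 1.14.1, without their settings; the kit was strand-specific per the labels, and the counting strand is not given in the sources used here. Dividing by the smallest step gave whole reads for 100% of values within 0.01. Per-library reads ranged from 5629666 to 7183175. No unmapped column of values was left; the 5 columns of group means were not used.

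The 5567 genes whose mean was 10 normalized counts or more were fitted on log2(value + 1), a scale that understates changes of low genes, with limma 3.58.1 (trend) in R 4.3.3, 1 fit to all 15 libraries, 2-sided, Benjamini-Hochberg adjusted. Alternatives were edgeR 4.0.16 and DESeq2 1.42.0 on recovered reads, other pseudocounts, filters and scalings, and each library left out. Floors cover counting error only. Scripts were tested on simulated data. Symbols came from RefSeq (5917 of 6600 identifiers). The members, lists and tests were chosen with earlier results of these data known. All members were named; of each list, up to 4 called genes with the largest change at Yb EC50 and 2 at La EC50, any gene of lists of at most 6, and the 5 most alike genes of 3 members. TPK3, RPH1, CAD1, YAP3 and YAP6 were named after their values were seen. A further gene of the kinase network list is not reported here.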

Additional observations from a re-analysis of the deposited data

Results flagged for a closer look

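CIN5 was flagged because its change from EC10 to EC50 differed between the metals: the ytterbium step minus the lanthanum step was -0.83 on the log2 scale (limma adjusted p = 0.0433). Several alternatives lost this call. Among them were no filter (adjusted p = 0.058), only the groups compared (adjusted p = 0.0592) and leaving out La EC50 library 12 (adjusted p = 0.112). Its La EC10 libraries had 84.3, 126 and 114 normalized counts and its La EC50 libraries 172, 141 and 157, while its Yb EC10 libraries had 100.1, 116 and 122 and its Yb EC50 libraries 94.8, 103 and 80.1. By limma neither step alone was called; the lanthanum step was called with DESeq2 (adjusted p = 0.0263), with equal totals (adjusted p = 0.0494) and without La EC10 library 14 (adjusted p = 0.0283).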

How the results depend on the processing

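Of 90 member comparisons 20 were called, 16 of them under all 24 alternatives; 58 were called under none and 12 only under some. No call changed sign. Leaving out 1 library at a time, the number of members called ranged over 1 to 3 at La EC10 (1 with all libraries), 3 to 5 at Yb EC50, 3 to 4 at both Yb EC10 and La EC50, 2 to 3 between the metals at EC10, 0 to 1 for the lanthanum step, 0 to 2 for the ytterbium step, 0 to 3 for the difference between the steps, and 5 to 6 among the 5 groups. The lanthanum step had 1 call with equal totals and with DESeq2, the ytterbium step 1 with edgeR and 2 with DESeq2, and the difference between steps 0 with no filter or with only the groups compared and 2 with DESeq2. Over all genes, the ytterbium step had 61 calls; it had 0 with only the groups compared, 19 with no filter, 142 with quantile normalization, 176 with edgeR, 203 with equal totals and 308 with DESeq2, and 0 (without Yb EC10 library 8 or Yb EC50 library 5) to 537 (without Yb EC10 library 7) with 1 library left out. The lanthanum step had 99 calls, 169 with DESeq2, and 32 (without La EC50 library 12) to 128 (without Yb EC10 library 8) with 1 left out. The difference between steps had 181 calls; it had 57 with only the groups compared, 70 with no filter, 273 with edgeR and 356 with DESeq2, and 16 (without La EC50 library 12) to 481 (without Yb EC10 library 7) with 1 left out. Equal totals moved the median of all genes to 0.11 at both EC50 groups and the calls at Yb EC50 from 1148 higher and 1126 lower to 1755 and 472, and at La EC50 from 703 and 722 to 1195 and 416; at La EC10 they went from 569 and 562 to 767 and 311, and at Yb EC10 from 847 and 782 to 1062 and 454. The cause was not tested. No paired analysis was possible because the columns carry a running library number and not the labels' replicate numbers. Depth limits XBP1 most.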

Other observations

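Genes that act ahead of the factors were also measured. Of 8 regulators of Msn2 and Msn4, 3 rose at Yb EC50: YAK1, a kinase gene (0.63 ± 0.10 on the log2 scale, limma adjusted p = 0.000231), and the 14-3-3 protein genes BMH2 (0.34 ± 0.07) and BMH1 (0.20 ± 0.07). This count is no more than the share of all genes called there, 40.8%. YAK1 also rose at La EC50 (0.40 ± 0.10). Of the 3 genes for control of Yap1, HYR1, whose peroxidase product oxidises Yap1, and YBP1, which encodes a Yap1-binding protein, rose in both ytterbium groups and at La EC10; the increases at Yb EC50 were 0.42 ± 0.08 and 0.36 ± 0.07. The HYR1 increase at Yb EC10 was not called under quantile normalization (adjusted p = 0.0646). CRM1, the exporter gene, had log2 changes between 0.00 and 0.07, and rose at Yb EC50 only with libraries scaled to equal totals (adjusted p = 0.0208). In the phosphorelay ahead of Skn7, SSK1, which encodes the response regulator that shares this relay, rose in all 4 exposures by 0.33 to 0.51, and YPD1, the gene of the phosphotransfer protein, rose at La EC50 by 0.40 ± 0.07. SLN1, the sensor kinase gene, had log2 changes between -0.06 and 0.02.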
